A study of Mus musculus with 13 samples.

Results

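Laminins are the cross-shaped proteins that carry every basement membrane, and the transcripts of 9 laminin chain genes were followed in RNA of purified mouse glomeruli, the filtering units of the kidney. The genes were chosen by symbol: the alpha chains Lama1, Lama2, Lama3, Lama4 and Lama5, the beta chains Lamb1, Lamb2 and Lamb3, and the gamma chain Lamc1. All 9 were found among the 46958 genes of the count table, and 8 of them, all but Lamb3, had enough reads to enter the tests.

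The series compared 3 genotypes on a mixed C57/BL6x129/SVxBALB/c background, all aged 6 months and all sampled as glomeruli purified with magnetic beads. The labels name the genotypes kFRA (LCDD), DH-LMP2A and WT, with 4, 4 and 5 libraries. LCDD stands for light chain deposition disease, in which monoclonal immunoglobulin light chains settle along renal basement membranes, and the toxicity of such chains to the glomerulus is the subject given by the series. As background from knowledge of the model and not from the labels, kFRA mice carry a human kappa light chain gene from a patient at the mouse kappa locus, and DH-LMP2A mice carry at the heavy-chain locus an allele for the viral protein LMP2A that yields plasma cells without an endogenous heavy chain. The labels do not say whether the LCDD mice also carry the DH-LMP2A allele, nor at what level the human chain circulated. Each library pooled 3 mice except 3 of the 5 WT libraries, which held 1 mouse each. Libraries are numbered within a genotype in deposition order, and that they are separate replicates rests on the labels, so p-values measure only the spread between these libraries.

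A laminin molecule is a trimer of 1 alpha, 1 beta and 1 gamma chain, assembled inside the cell before secretion, so the chains a cell transcribes limit the trimers it can make. In the glomerular basement membrane, to which podocytes and endothelial cells both contribute, fetal trimers with alpha1 and beta1 give way during maturation to the adult trimer of alpha5, beta2 and gamma1. Loss of beta2 causes congenital nephrotic syndrome in humans (Pierson syndrome) and proteinuria in mice. The alpha2 chain is best known from muscle and occurs in the mesangium, alpha4 from vascular endothelium, and alpha3 and beta3 from epithelial laminin of skin.

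Total counts ran from 16687509 to 30587890 per library. Sample titles carry a 6-digit code shared between genotypes, whose meaning the labels do not state. It takes 4 values, written here as codes A to D in ascending order, and code B holds no WT library. LCDD and DH-LMP2A each have 1 library under every code, numbered 1 to 4 in that order, and WT libraries 1 and 2 stand under codes A and C and libraries 3 to 5, the single mice, under code D. Podocyte markers, summed over 8 genes, ran from 7143 CPM in LCDD 1 to 33606 CPM in WT 4, so the labelled tissue was present in every library, and none of the 51 marker genes of 8 cell types was at 0 anywhere. Counts of Ddx3y, a Y-linked gene, were at most 1 in 4 of 5 WT libraries and in 0 of the 8 others, so the sex of the mice and WT against the other genotypes cannot be fully told apart. Ddx3y had 2214, 296, 1861 and 208 counts in LCDD 1 to 4 and 1336, 2296, 435 and 1185 in DH-LMP2A 1 to 4. Xist, an RNA of female cells, had 2574, 13548, 9 and 25354 counts in LCDD and 2729, 1026, 17524 and 17549 in DH-LMP2A. The mix of sexes was thus not matched within codes between these genotypes either.

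Levels are given in CPM, read counts per 1000000 counts of the library scaled with TMM factors, and for comparisons between genes in CPM per kilobase of exon. Per kilobase, Lamb2 stood highest with 130.3 ± 27.4 CPM per kb (SD, n = 13 libraries), followed by Lama5 with 59.9 ± 15.9, Lamc1 with 31.0 ± 7.14 and Lamb1 with 22.1 ± 4.86. These 4 chains are those of the adult trimer and of its fetal beta chain. Far below came Lama3 with 5.003 ± 1.86 CPM per kb, Lama4 with 4.41 ± 1.44, Lama2 with 1.01 ± 0.252, Lama1 with 0.258 ± 0.171 and Lamb3 with 0.0341 ± 0.0261. For 5 of the 8 pairs of neighbours in this order the upper chain was higher in 13 of 13 libraries. Lama5 exceeded Lamc1 in 12 of 13 libraries (not in LCDD 1) and Lamc1 exceeded Lamb1 in 12 of 13 (not in LCDD 4), but the SDs of Lamc1 and Lamb1 overlap. Lama3 and Lama4 did not differ beyond their spread, with Lama3 the higher in 9 of 13 libraries.

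**Figure D1:**
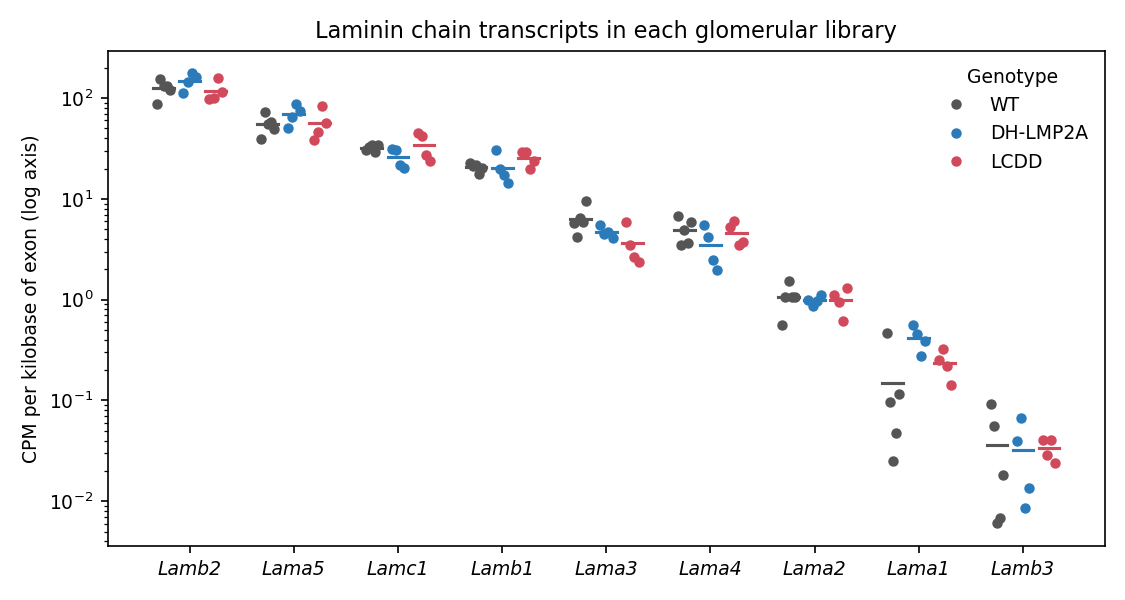
Level of each of the 9 laminin chain genes in CPM per kilobase of exon on a log axis, 1 point per library and a bar at each genotype's mean (WT n = 5, DH-LMP2A n = 4, LCDD n = 4). The chains span from Lamb2, at 87.4 to 176.6 CPM per kb, down to Lamb3, at most 0.0930 CPM per kb, and the genotypes overlap within every chain.

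By class, Lama5 made up 83.9 ± 6.46% of the summed alpha chain level per kilobase over the 13 libraries (SD), with 84.3% in LCDD, 87.2% in DH-LMP2A and 80.8% in WT. Lamb2 made up 84.8 ± 5.17% of the summed beta chain level, with 81.6% in LCDD, 87.4% in DH-LMP2A and 85.3% in WT. Transcripts of the adult chains led their class in each of the 13 libraries, with the lowest shares at 74.3% for Lama5 and 77.1% for Lamb2. The class sums were unequal: beta chains reached 152.5 CPM per kb, alpha chains 70.6 and Lamc1 31.0 on average.

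Lama5 (chr2:180176373-180225859, minus strand, GRCm38, as all coordinates here) encodes the alpha chain of the adult glomerular trimer. Its level was 442, 529, 962 and 649 CPM in LCDD 1 to 4, 578, 738, 994 and 842 CPM in DH-LMP2A 1 to 4, and 447, 838, 637, 657 and 560.4 CPM in WT 1 to 5. The libraries under code C were the highest of each genotype and those under code A the lowest, and the genotypes overlapped. Lamb2 (chr9:108479736-108490530, plus strand) encodes the beta chain of that trimer. Its level was 596, 609, 961 and 699 CPM in LCDD, 689.5, 886, 1074 and 976 CPM in DH-LMP2A, and 532, 933, 802, 809.6 and 737 CPM in WT. The same libraries were high and low as for Lama5. Lamc1 (chr1:153218922-153332786, minus strand) encodes the gamma chain that most laminins of the kidney share. Its level was 370.0, 346, 226 and 196 CPM in LCDD, 261, 252, 179 and 167 CPM in DH-LMP2A, and 254, 271, 286, 239.9 and 286 CPM in WT. In LCDD and DH-LMP2A it was highest under code A and lowest under code D, with LCDD 1 and 2 the highest of all 13 libraries and DH-LMP2A 3 and 4 the lowest. In WT the library under code A lay below that under code C, as for Lama5.

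Lamb1 (chr12:31265234-31329644, plus strand) encodes the beta chain of the fetal trimer, which in the adult glomerulus belongs mainly to the mesangium. Its level was 289, 289, 198 and 235 CPM in LCDD, 301, 196, 173 and 143 CPM in DH-LMP2A, and 228, 209, 215, 176 and 203 CPM in WT. DH-LMP2A alone spanned the range of all 13 libraries, from 143 to 301 CPM. Since Lama5 and Lamb2 moved together across libraries and Lamb1 against them, as the correlations further on show, the promoter windows of these 3 genes are given for comparison. They are the RefSeq windows on GRCm38.p6 from 250 bases before to 50 after each gene's RefSeq start, which is not always the start in the count table. The windows are chr2:180225810-180226109 on the minus strand for Lama5, chr9:108479612-108479911 on the plus strand for Lamb2 and chr12:31265043-31265342 on the plus strand for Lamb1, all 5′ to 3′, with GC boxes (GGGCGG on either strand, written CCGCCC where it lies on the other) in capitals.
Lama5: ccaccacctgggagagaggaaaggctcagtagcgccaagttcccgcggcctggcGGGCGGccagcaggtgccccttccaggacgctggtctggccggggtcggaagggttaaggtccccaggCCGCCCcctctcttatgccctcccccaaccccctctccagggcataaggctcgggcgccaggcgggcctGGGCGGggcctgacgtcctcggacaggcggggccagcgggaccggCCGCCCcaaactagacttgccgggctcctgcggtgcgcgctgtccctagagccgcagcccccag
Lamb2: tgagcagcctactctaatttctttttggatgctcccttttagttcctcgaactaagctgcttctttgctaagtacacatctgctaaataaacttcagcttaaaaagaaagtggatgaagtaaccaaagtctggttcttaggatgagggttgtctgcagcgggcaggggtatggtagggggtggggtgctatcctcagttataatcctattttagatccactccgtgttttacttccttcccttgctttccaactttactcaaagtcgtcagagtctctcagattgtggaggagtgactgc
Lamb1: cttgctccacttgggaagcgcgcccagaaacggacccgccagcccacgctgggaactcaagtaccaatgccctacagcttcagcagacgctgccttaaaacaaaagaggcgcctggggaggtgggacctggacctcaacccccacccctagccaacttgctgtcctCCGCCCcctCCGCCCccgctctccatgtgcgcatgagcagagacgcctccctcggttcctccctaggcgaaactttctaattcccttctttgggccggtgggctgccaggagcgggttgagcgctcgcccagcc

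The windows of Lama5 and Lamb2 had little in common by these measures. Lama5 had 72.7% GC and 4 GC boxes, Lamb2 had 44.0% GC and 0, and Lamb1 had 63.7% GC and 2, against a median of 52.7% GC over the 32851 promoter windows of the table, 35.7% of which held at least 1 GC box. None of the 3 windows held TATAAA, found in 13.6% of all windows, or TAATTA, a core of homeodomain binding, found in 5.29% (both strands, no overlap between the motifs). A match or its absence describes letters in this window only. The table held windows for 5 of the 9 chains, the others being Lama2 and Lamb3.

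Lama4 (chr10:38965515-39110188, plus strand) encodes the alpha chain of vascular endothelial laminin. Its level was 63.2, 73.2, 42.4 and 45.0 CPM in LCDD, 65.9, 50.1, 29.6 and 23.8 CPM in DH-LMP2A, and 81.7, 42.4, 59.7, 44.3 and 70.4 CPM in WT. DH-LMP2A 3 and 4 were the lowest of all 13 libraries and WT 1 the highest. Lama2 (chr10:26980036-27619758, minus strand), the chain of muscle and mesangium, was at 18.1, 15.6, 10.02 and 21.1 CPM in LCDD, 16.2, 14.1, 16.0 and 18.2 CPM in DH-LMP2A, and 9.19, 17.4, 25.0, 17.3 and 17.2 CPM in WT. Both its lowest and its highest library were WT.

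Lama3 (chromosome 18, 12333819 to 12583013, plus strand) encodes the alpha chain of epithelial laminin. Its level was 64.1, 37.8, 28.4 and 25.2 CPM in LCDD, 59.0, 48.7, 50.2 and 43.6 CPM in DH-LMP2A, and 62.4, 44.7, 68.7, 64.0 and 102 CPM in WT. LCDD 2, 3 and 4 were the lowest of all 13 libraries, and LCDD 1 lay above all 4 DH-LMP2A and 3 of 5 WT libraries. Its usual partner Lamb3 (chr1:193207699-193343878, plus strand) had 1 to 19 counts per library and was at or under 3 counts, taken as the limit of detection, in 5 of 13 libraries, so no fold change is given for it. These limits cover counting error only.

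Lama1 (chr17:67697265-67822645, plus strand) encodes the alpha chain of the fetal trimer, which in the adult kidney is best known from tubular basement membrane. Its level was 2.42, 3.09, 2.10 and 1.34 CPM in LCDD, 5.28, 4.33, 2.63 and 3.67 CPM in DH-LMP2A, and 4.40, 0.927, 0.240, 0.447 and 1.10 CPM in WT, on 6 to 141 counts. WT 1 stood with the DH-LMP2A libraries, and the other 4 WT libraries lay below every LCDD and DH-LMP2A library. With a ratio of 22.0 between its highest and lowest library, Lama1 had the widest range among the chains tested.

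Between LCDD and DH-LMP2A, which share all 4 title codes, 0 of 8 chains were called at an adjusted p under 0.05 by edgeR's quasi-likelihood test, against 2.00% of all 16738 genes tested. At an unadjusted p under 0.05 the count was also 0, against 13.1% of all genes, and DESeq2 called 0 as well (4.31% of all genes), with 0 at an unadjusted p under 0.05 (9.37%). Here and below, DESeq2 shares are over a wider set of genes than those of edgeR. That set held 19116 to 19640 genes for adjusted p and 28045 for unadjusted p. All 8 chains overlapped between the genotypes, as did all but 7.62% of genes. The median log2 fold change of the 8 chains was -0.14, against -0.01 over all genes. Positive values mean higher in the genotype named first. Lamc1 had a log2 fold change of 0.41 ± 0.21 (SE, 95% interval -0.05 to 0.86, adjusted p = 0.451 by edgeR), Lamb2 of -0.34 ± 0.21 (-0.80 to 0.12, adjusted p = 0.560) and Lama5 of -0.29 ± 0.26 (-0.85 to 0.27, adjusted p = 0.715). Lama4, at 0.40 ± 0.31, and Lamb1, at 0.31 ± 0.20, were on the side of Lamc1. These intervals reach 0.86 on the log2 scale for Lamc1 and -0.85 for Lama5, so the missed threshold does not show that the levels were alike.

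The title code was taken to pair LCDD with DH-LMP2A libraries, least clearly under code B, and within codes 4 of 8 chains kept 1 direction throughout. Lamc1 was higher in LCDD under 4 of 4 codes, by 0.50, 0.46, 0.34 and 0.23 on the log2 scale. Lama5 was lower in LCDD under 4 of 4 codes, with log2 differences of -0.39, -0.48, -0.05 and -0.38, and so was Lamb2, with -0.21, -0.54, -0.16 and -0.48. Lama1 was lower under 4 of 4 codes too, with -1.10, -0.48, -0.31 and -1.40. Of all genes, 17.6% were higher and 16.2% lower under every code, so 1 and 3 of 8 chains compare with these shares. With the code as a block, the fit called 6.10% of all genes and again 0 of 8 chains. Lamb2 was then at -0.35 ± 0.11 (adjusted p = 0.0855 by edgeR), Lama5 at -0.32 ± 0.11 (adjusted p = 0.103), Lamc1 at 0.39 ± 0.15 (adjusted p = 0.168), Lama4 at 0.46 ± 0.19 (adjusted p = 0.178) and Lamb1 at 0.34 ± 0.15 (adjusted p = 0.203). These are the 5 of 8 chains with an unadjusted p under 0.05 in that fit, against 22.5% of all genes.

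**Figure D2:**
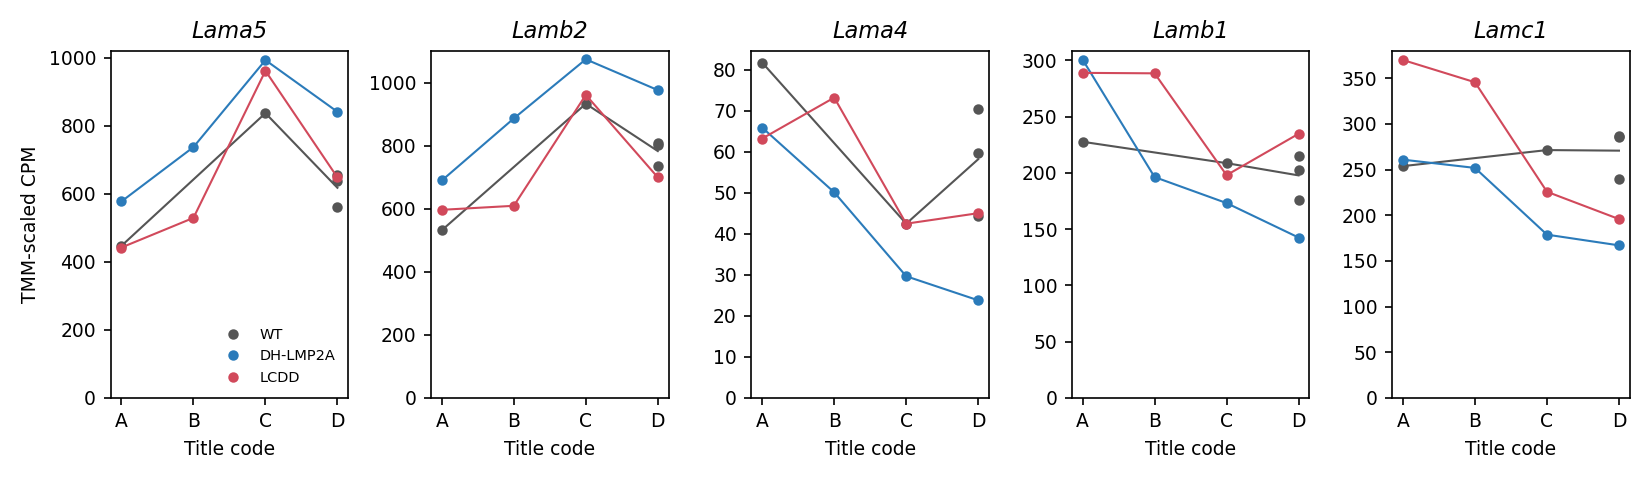
TMM-scaled CPM of Lama5, Lamb2, Lama4, Lamb1 and Lamc1 by title code, 1 point per library, with lines joining each genotype's mean under a code (WT has no library under code B, and the codes have no stated order). Under each code the LCDD point lies below the DH-LMP2A point for Lama5 and Lamb2 and above it for Lamc1, while the codes differ from each other by more than the genotypes do for Lama5.

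The codes differed more than the genotypes for Lama5 and Lamb2. Taken alone, the code held 75.8% of the sum of squares of Lama5 and the genotype 16.8%, and the shares were 67.7% and 22.6% for Lamb2 (log2 CPM, 13 libraries; the design is unbalanced, so the shares overlap). Averaged over genotypes, Lama5 was at 489 CPM under code A and at 931 CPM under code C. The code has 4 values and the genotype 3, which favours the code in such shares. Lama3 was the one chain of 8 with the larger share for the genotype, 46.6% against 21.9% for the code. The shares lay close for Lama1, at 49.2% for the genotype against 49.8%, and for Lamc1, at 26.7% against 30.6%.

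Between LCDD and WT, 0 of 8 chains were called by edgeR, against 1.84% of all genes, and 1 of 8, Lama3, had an unadjusted p under 0.05, against 12.0% of all genes. DESeq2 also called 0 (3.78% of all genes), with 1 at an unadjusted p under 0.05 (8.77%). Lama3 had a log2 fold change of -0.81 ± 0.27 (95% interval -1.40 to -0.22, adjusted p = 0.192 by edgeR). Without LCDD 1, the LCDD library that lay within the range of WT, it was -1.17 with an adjusted p of 0.0354 by edgeR, so the call turns on this single library. Under codes A, C and D Lama3 differed by 0.04, -0.65 and -1.60 on the log2 scale, and 0 of 8 chains kept 1 direction under all 3, against 17.0% of genes higher and 14.3% lower throughout. The other 7 chains lay between -0.09 and 0.63, with adjusted p-values from 0.648 to 0.981, and the median of the 8 was -0.02 against 0.01 for all genes. All 8 chains overlapped between the genotypes, as did all but 4.59% of genes.

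Between DH-LMP2A and WT, which differ without the light chain, 0 of 8 chains were called by edgeR, against 0.627% of all genes, and 1 of 8, Lama1, had an unadjusted p under 0.05, against 12.5%. DESeq2 called 0 (2.48% of all genes), with 1 at an unadjusted p under 0.05 (9.50%). Lama1 had a log2 fold change of 1.46 ± 0.63 (95% interval 0.10 to 2.82, adjusted p = 0.363 by edgeR). Without WT 1 it was 2.56 with an adjusted p of 0.0170 by edgeR, so this call too turns on 1 library. Lama5 was at 0.33 ± 0.25, Lamb2 at 0.25 ± 0.20, Lamc1 at -0.32 ± 0.20 and Lama4 at -0.50 ± 0.30, with adjusted p-values from 0.534 to 0.645 by edgeR. Lama1, Lama5 and Lamb2 were higher and Lama4 lower in DH-LMP2A under all 3 shared codes, against 18.8% and 13.4% of all genes. The median over the 8 chains was -0.06 against 0.00 for all genes, and all 8 overlapped between the genotypes, as did all but 4.97% of genes. DH-LMP2A is the shared group of this comparison and the one with LCDD, and WT of this one and the last, so their values are given side by side and are not independent.

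**Figure D3:**
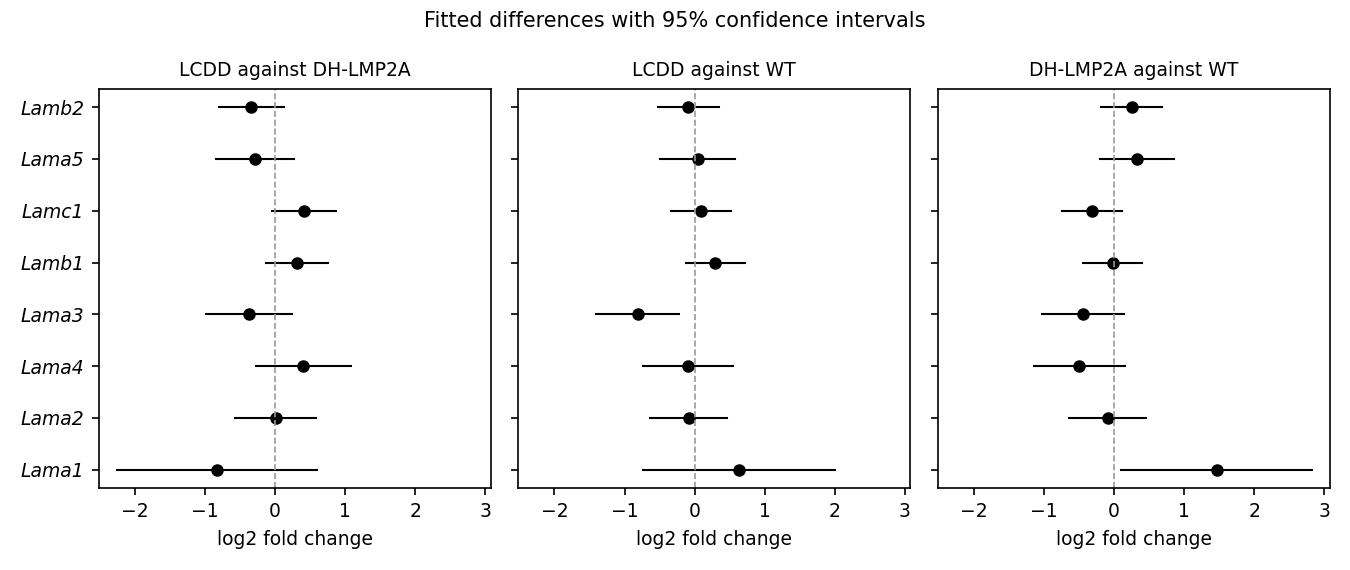
Log2 fold changes of the 8 tested laminin chains in the 3 comparisons, with points at the edgeR estimate and bars for the 95% confidence interval; the dashed line marks no difference. The bars cross 0 everywhere except for Lama3 in LCDD against WT (-1.40 to -0.22) and Lama1 in DH-LMP2A against WT (0.10 to 2.82), and no adjusted p is under 0.05.

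The level of each fetal chain was also taken as a ratio to its adult counterpart within each library. Lamb1 and Lama1 moved with mesangial and tubule markers, as given further on. The ratios describe whole libraries, and whether they reflect a fetal to adult exchange was not tested. Per kilobase, Lamb1 was 29.7, 29.0, 12.6 and 20.6% of Lamb2 in LCDD, 26.7, 13.6, 9.89 and 8.95% in DH-LMP2A, and 26.3, 13.7, 16.4, 13.4 and 16.9% in WT. The 3 genotypes overlapped, and LCDD exceeded DH-LMP2A under 4 of 4 codes, by 0.15, 1.10, 0.35 and 1.20 on the log2 scale. The mean log2 ratio was -2.20 ± 0.58 in LCDD (SD, n = 4), -2.90 ± 0.71 in DH-LMP2A (n = 4) and -2.58 ± 0.39 in WT (n = 5). LCDD and DH-LMP2A differed by 0.70 (two-sided exact permutation test, p = 0.171, adjusted p = 0.381 over 6 tests, smallest possible p 0.0286). This test does not pair libraries by title code, so its spread includes the differences between codes. LCDD and WT differed by 0.38 (exact permutation p = 0.254, adjusted 0.381), and DH-LMP2A and WT by -0.33 (exact permutation p = 0.460, adjusted 0.460).

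Lama1 stayed a trace beside Lama5 in every library. It was 0.654, 0.697, 0.261 and 0.247% of Lama5 per kilobase in LCDD, 1.09, 0.703, 0.316 and 0.522% in DH-LMP2A, and 1.18, 0.132, 0.0451, 0.0815 and 0.234% in WT. The log2 ratio differed by -0.53 between LCDD and DH-LMP2A (two-sided exact permutation p = 0.371, adjusted p = 0.446 over the same 6 tests), by 1.30 between LCDD and WT (exact permutation p = 0.190, adjusted 0.381) and by 1.83 between DH-LMP2A and WT (exact permutation p = 0.111, adjusted 0.381). None of the 6 differences exceeded the spread between libraries by this unpaired test.

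**Figure D4:**
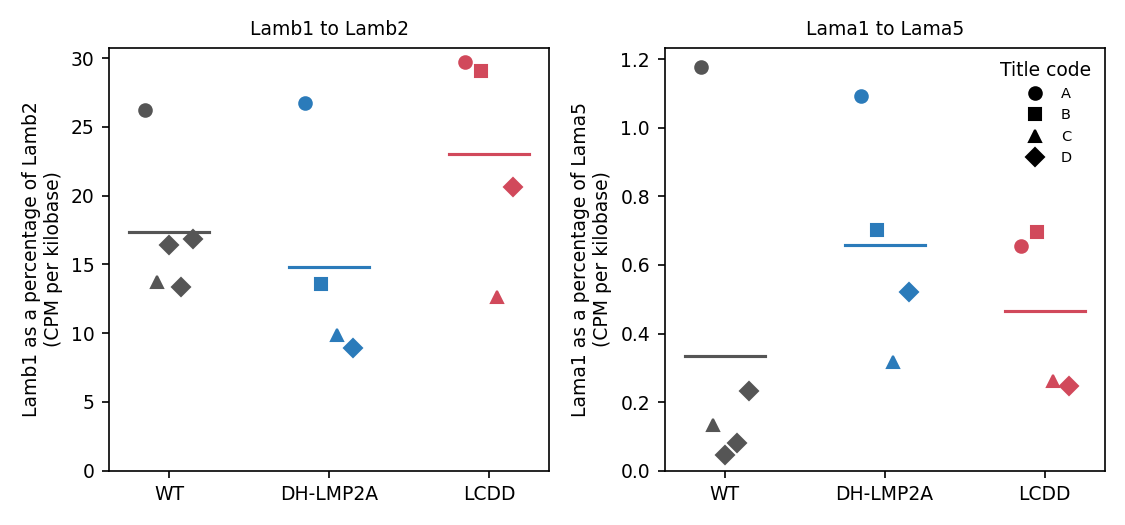
Lamb1 as a percentage of Lamb2 (left) and Lama1 as a percentage of Lama5 (right), both from CPM per kilobase, 1 point per library with its shape for the title code and a bar at each genotype's mean percentage. Lamb1 reaches at most 29.7% of Lamb2 and Lama1 at most 1.18% of Lama5, and in each genotype the library under code A is at or near the top.

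Across the 13 libraries 5 of the 8 chains formed a pair of opposing sets, Lama5 and Lamb2 against Lama4, Lamb1 and Lamc1, although Lamb2 with Lamc1 missed the threshold (r = -0.629, rho = -0.654, permutation, adjusted p = 0.0616). Lama1, Lama2 and Lama3 belonged to neither, with r to Lama5 of -0.086, -0.004 and -0.448 and to Lamc1 of -0.126, 0.046 and 0.395 (permutation, adjusted p from 0.255 to 0.998). Lama5 and Lamb2, the alpha and beta chains of the adult trimer, were high in the same libraries, with Pearson's r = 0.961 and Spearman's rho = 0.962 for log2 CPM (permutation test, adjusted p = 0.00046 for r over 92 relations). Leaving out the 2 libraries farthest from the median gave r = 0.954, and deviations from the title code means gave r = 0.894. Lama4 ran against Lama5, with r = -0.834 and rho = -0.901 (permutation, adjusted p = 0.0046), r = -0.841 without the 2 farthest libraries and r = -0.799 within codes. Lama4 went with Lamc1, the gamma chain, at r = 0.805 and rho = 0.709 (permutation, adjusted p = 0.0087), with r = 0.569 without the 2 farthest libraries and 0.732 within codes. Lamb1 went against Lamb2, at r = -0.752 and rho = -0.846 (permutation, adjusted p = 0.0162), with r = -0.770 without the 2 farthest libraries and -0.626 within codes. Libraries share codes and genotypes, the levels of a library share its total, and the codes hold 3, 2, 3 and 5 libraries, too few for a correlation inside any one code.

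Marker genes of the glomerular cell types moved with these sets. Lama4 followed the mean of the 8 endothelial markers at r = 0.896 and rho = 0.890 (permutation, adjusted p = 0.000613), with r = 0.796 without the 2 farthest libraries and 0.861 within codes. Lamc1 followed the same markers at r = 0.886 and rho = 0.879 (permutation, adjusted p = 0.0011), with 0.871 and 0.873 in those checks. The summed endothelial markers ran from 5093 to 12009 CPM in LCDD, 3745 to 9710 CPM in DH-LMP2A and 7488 to 12216 CPM in WT. Of the endothelial markers, 8 of 8 were higher in LCDD than in DH-LMP2A (median log2 fold change 0.49). Against WT, 7 of 8 were lower in LCDD (-0.31) and 8 of 8 in DH-LMP2A (-0.72), and 0 were called in any comparison by edgeR without the block. Lama5 and Lamb2 followed the 8 podocyte markers less closely, at r = 0.727 and 0.741 and rho = 0.681 and 0.731 (permutation, adjusted p = 0.0190 and 0.0162), and within codes at r = 0.438 and 0.389. Without the 2 farthest libraries these were 0.763 and 0.690. Across all libraries Lama5 also ran against the endothelial markers, at least as closely as it followed the podocyte markers. Podocyte markers summed to 7143 to 30749 CPM in LCDD, 16123 to 31369 CPM in DH-LMP2A and 14937 to 33606 CPM in WT. In LCDD 8 of 8 podocyte markers were lower in both comparisons, with medians of -0.45 against DH-LMP2A and -0.56 against WT on the log2 scale. Of these edgeR called 0 against DH-LMP2A (2.00% of all genes) and 1, Ptpro, against WT (1.84%). With the block, 2 were called lower against DH-LMP2A (6.10% of all genes). Lama5 and Lamb2 were also high where the 4 smooth muscle markers were high, at r = 0.820 and 0.834 and rho = 0.824 and 0.819 (permutation, adjusted p = 0.00727 and 0.00644), at 0.850 and 0.847 without the 2 farthest libraries, and within codes at 0.824 and 0.804. Those markers summed to 118 to 299.7 CPM in LCDD, 179 to 438 CPM in DH-LMP2A and 164 to 298 CPM in WT.

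In RNA of whole glomeruli, fewer cells of a type and less RNA per cell cannot be told apart. With the podocyte markers as a covariate, added after the data were seen, the log2 fold change between LCDD and DH-LMP2A was 0.00 in place of -0.29 for Lama5 and 0.11 in place of 0.40 for Lama4, and that of Lama3 between LCDD and WT was -1.32 with an adjusted p of 0.0165 by edgeR in place of -0.81 and 0.192. With the endothelial markers as a covariate, Lama5 differed by -0.06 and Lama4 by 0.13 between LCDD and DH-LMP2A, and Lama3 by -0.62 between LCDD and WT. With the proximal tubule markers, both differences between LCDD and DH-LMP2A were larger, at -0.43 for Lama5 (adjusted p = 0.237 by edgeR) and 0.64 for Lama4 (adjusted p = 0.0728). Between DH-LMP2A and WT, the endothelial covariate turned the sign of 4 chains, with Lama5 at -0.12 in place of 0.33, Lamb2 at -0.08 in place of 0.25, Lama4 at 0.08 in place of -0.50 and Lamc1 at 0.08 in place of -0.32. It did so for Lama3, at 0.10 in place of -0.44, and Lamb1, at 0.30 in place of -0.02, as well. Whether the markers or the genotype set these levels was not tested beyond these fits.

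The summed level of the 6 mesangial markers did not overlap between LCDD and DH-LMP2A, at 3251 to 5544 CPM in LCDD against 2301 to 2963 CPM, with 2543 to 3260 CPM in WT. Of single genes, 7.62% did not overlap between LCDD and DH-LMP2A. Among the 6 markers, 2 were called higher in LCDD in both comparisons, Art3 and Ptn. The shares of all genes called were 2.00% against DH-LMP2A and 1.84% against WT. Lamb1 followed the mean of these markers at r = 0.686 and rho = 0.670 (permutation, adjusted p = 0.0382), with 0.758 without the 2 farthest libraries and 0.792 within codes. Across all libraries Lamb1 also ran against the podocyte markers, at least as closely as it followed the mesangial ones. The part of either set of markers in the level of Lamb1 was not tested.

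Lama1 went with markers of cells outside the tuft. Its correlation with the mean of the 8 proximal tubule markers was r = 0.889 and rho = 0.912 (permutation, adjusted p = 0.0011), with r = 0.862 without the 2 farthest libraries and 0.809 within codes. With the 5 parietal epithelial markers it was r = 0.917 and rho = 0.923 (permutation, adjusted p = 0.00046), with 0.859 and 0.912 in the same checks. Proximal tubule markers summed to 304 to 1098 CPM in LCDD, 345 to 2224 CPM in DH-LMP2A and 87.9 to 2080 CPM in WT, and parietal markers to 28.0 to 68.9, 35.8 to 60.7 and 20.1 to 56.7 CPM. WT 1, the library in which Lama1 stood apart from the rest of WT, was the one WT library with 2080 CPM of tubule markers. With the proximal tubule markers as a covariate, the log2 fold change of Lama1 between DH-LMP2A and WT was 0.84 in place of 1.46 (adjusted p = 0.215 by edgeR). It was 1.48 with the podocyte markers (adjusted p = 0.101 by edgeR) and 2.09 with the endothelial markers (adjusted p = 0.182). The part of tubule or parietal cells in the level of Lama1 was not tested.

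**Figure D5:**
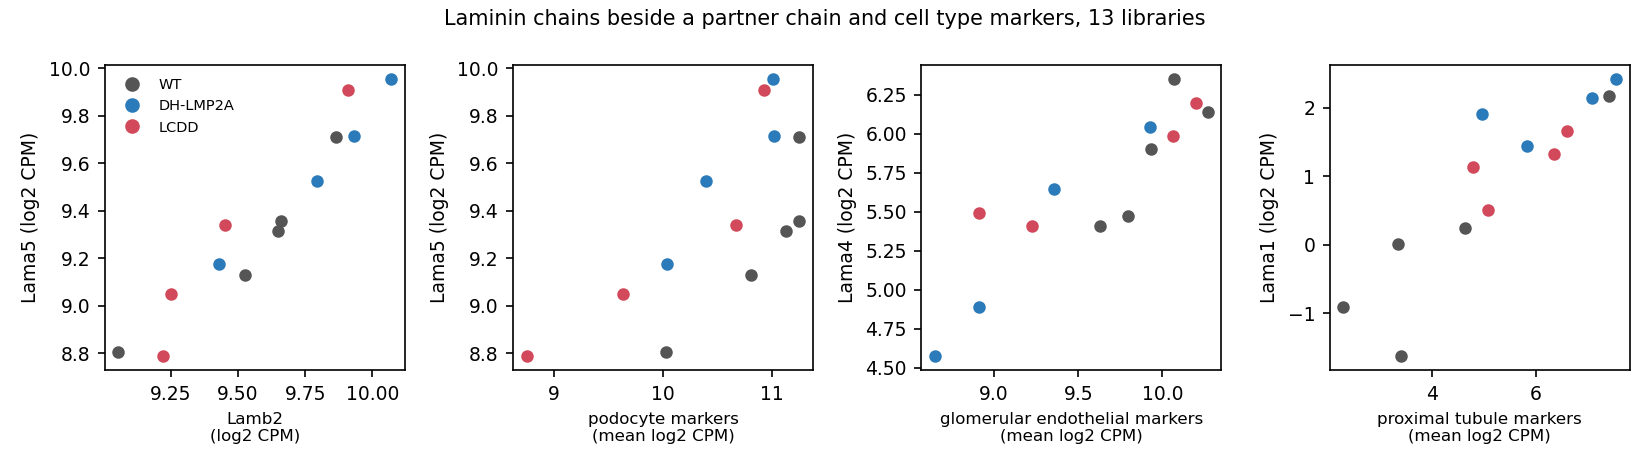
Log2 CPM of Lama5 against Lamb2, of Lama5 against podocyte markers, of Lama4 against glomerular endothelial markers and of Lama1 against proximal tubule markers, each marker axis being the mean log2 CPM of 8 genes, with 1 point per library coloured by genotype (WT n = 5, DH-LMP2A n = 4, LCDD n = 4). Pearson's r over the 13 libraries is 0.961, 0.727, 0.896 and 0.889 from left to right.

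Among 11615 other genes averaging 5 CPM or more, the profiles closest to that of Lama1, the chain with the widest range, were those of Chdh (choline dehydrogenase), Pkhd1 (fibrocystin) and Kcnk5 (a potassium channel). Their log2 CPM, centred on the mean, differed from that of Lama1 by a root mean square of 0.31, 0.37 and 0.44 over the 13 libraries.

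The genes that laminins work with were taken from 4 lists. Of 3 other chains of the laminin and netrin family (Lamc3, Ntn4 and Ntn1), 0 were called in any comparison by edgeR without the block, and DESeq2 called 1, Lamc3 in LCDD against DH-LMP2A (-1.44, adjusted p = 0.0340). At an unadjusted p under 0.05 edgeR had 1 of 3 in LCDD against DH-LMP2A (13.1% of all genes), 0 in LCDD against WT (12.0%) and 3 in DH-LMP2A against WT (12.5%). Lamc3, a further laminin gamma chain, was at 4.30, 8.88, 14.5 and 4.50 CPM in LCDD, 8.49, 27.8, 21.9 and 28.5 CPM in DH-LMP2A, and 4.98, 10.1, 10.5, 14.6 and 9.61 CPM in WT. It was lower in LCDD than in DH-LMP2A under 4 of 4 codes, with a log2 fold change of -1.43 ± 0.46 (adjusted p = 0.150 by edgeR), and with the code as a block it was called, at -1.41 ± 0.31 (adjusted p = 0.0264). It was also called by edgeR with the tubule covariate (-1.62, adjusted p = 0.0252) and without DH-LMP2A 1 (adjusted p = 0.0499). Between LCDD and WT, Lamc3 differed by only -0.31 ± 0.43 (adjusted p = 0.891 by edgeR). Its mean was highest in DH-LMP2A, at 21.7 CPM against 8.04 CPM in LCDD and 9.95 CPM in WT. Ntn4, a laminin-binding netrin, had the smallest p of the list against WT, at -0.51 ± 0.28 in LCDD (adjusted p = 0.546 by edgeR) and -0.78 ± 0.29 in DH-LMP2A (adjusted p = 0.283). The list's median log2 fold change was -0.57 between LCDD and DH-LMP2A, -0.31 between LCDD and WT and 0.93 between DH-LMP2A and WT.

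Of 12 laminin receptors, 0 rose and 1 fell in LCDD against DH-LMP2A by edgeR (2.00% of all genes called), 1 rose and 1 fell in LCDD against WT (1.84%), and 0 were called in DH-LMP2A against WT (0.627%). At an unadjusted p under 0.05 edgeR had 5, 5 and 3 in that order, against 13.1%, 12.0% and 12.5% of all genes. DESeq2 called 2 (Itgb1 and Bcam), 2 (Itga7 and Bcam) and 0, against 4.31%, 3.78% and 2.48% of all genes. The list medians were -0.09, -0.10 and -0.01. Bcam (chromosome 7, 19756131 to 19771016), the Lutheran glycoprotein, is a receptor for laminins with the alpha5 chain. It was at 527, 572, 720.3 and 635 CPM in LCDD, 1067, 1073, 1279 and 1246 CPM in DH-LMP2A, and 805, 1676, 1047, 1168 and 1099.8 CPM in WT, so that every LCDD library lay below every other. It fell by 0.93 ± 0.21 on the log2 scale against DH-LMP2A (adjusted p = 0.0395 by edgeR) and by 0.92 ± 0.20 against WT (adjusted p = 0.0327). Its direction held when each library was left out, but the calls were lost, with adjusted p-values up to 0.117 and 0.108 by edgeR, without any one of LCDD 1, 2 or 4 or WT 3, 4 or 5 in both comparisons, and of DH-LMP2A 2, 3 or 4 in the first. Against WT the call was also lost with the podocyte covariate (-0.65, adjusted p = 0.0710 by edgeR) and the tubule covariate (-0.70, adjusted p = 0.0626), and against DH-LMP2A with the endothelial covariate (-0.80, adjusted p = 0.0515). Itga7, the alpha subunit of a laminin-binding integrin of muscle, was at 44.8, 50.1, 61.2 and 56.4 CPM in LCDD. In DH-LMP2A it was at 37.4, 38.9, 43.2 and 49.1 CPM, and in WT at 28.1 to 43.3 CPM. It rose in LCDD against WT by a log2 fold change of 0.70 ± 0.14 (adjusted p = 0.0239 by edgeR), and the call was lost, with adjusted p-values up to 0.0753, without LCDD 2, 3 or 4 or WT 3, 4 or 5. Between LCDD and DH-LMP2A it differed by only 0.34 ± 0.15 (adjusted p = 0.365 by edgeR). With the block, Itga1 and Itgb1, subunits of collagen and laminin receptors, were called higher in LCDD than in DH-LMP2A too. Itgb1 had the smallest p of the list between DH-LMP2A and WT, at -0.45 ± 0.17 (adjusted p = 0.302 by edgeR).

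Of 19 basement membrane partners, 2 rose and 1 fell in LCDD against DH-LMP2A by edgeR, 1 rose and 1 fell in LCDD against WT, and 1 fell in DH-LMP2A against WT, against the same 2.00%, 1.84% and 0.627% of all genes, with list medians of 0.14, -0.13 and -0.04. Nid1 and Nid2 encode the nidogens, which bind the gamma1 chain and link laminin to collagen IV. Nid1 was at 883, 595, 415 and 552 CPM in LCDD, 403, 329, 309 and 255 CPM in DH-LMP2A, and 336 to 422 CPM in WT. Nid2 was at 198, 169, 111 and 132 CPM in LCDD, 91.3, 97.2, 79.2 and 71.4 CPM in DH-LMP2A, and 78.6 to 101 CPM in WT. Every LCDD library exceeded every DH-LMP2A library for both genes and every WT library for Nid2. Nid2 rose by a log2 fold change of 0.85 ± 0.17 against DH-LMP2A (adjusted p = 0.0219 by edgeR) and 0.75 ± 0.16 against WT (adjusted p = 0.0280). Nid1 rose by 0.92 ± 0.21 against DH-LMP2A (adjusted p = 0.0448 by edgeR). Egflam, which encodes the dystroglycan ligand pikachurin, fell by 1.38 ± 0.33 on the log2 scale in LCDD against DH-LMP2A (adjusted p = 0.0492 by edgeR), from 3.97 to 8.74 CPM down to 1.61 to 3.61 CPM.

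These calls also turned on single libraries. The call of Nid2 against DH-LMP2A was lost without LCDD 1 or 2 or DH-LMP2A 2, 3 or 4 (adjusted p up to 0.0888 by edgeR), and that against WT without LCDD 1 or 2 or WT 2, 3, 4 or 5 (up to 0.105). Against WT the difference of Nid2 was 0.45 with the podocyte covariate (adjusted p = 0.0795 by edgeR) and 0.60 with the tubule covariate (adjusted p = 0.107), and the call was lost in the fit of these 2 genotypes alone too (0.72, adjusted p = 0.0712). Such fits of a pair of genotypes also lost the calls of Nid1, Nid2 and Egflam against DH-LMP2A (adjusted p = 0.144, 0.0845 and 0.0972 by edgeR). They lost those of Itga7 and Bcam against WT as well (0.0747 and 0.0971). The call of Nid1 was lost without any library other than LCDD 3 and DH-LMP2A 1 (adjusted p up to 0.145 by edgeR), and that of Egflam without LCDD 1, 2 or 4, DH-LMP2A 2, 3 or 4 or WT 3, 4 or 5 (up to 0.157) and with the podocyte (0.0556) or endothelial covariate (0.0872). With the block, the partners called between LCDD and DH-LMP2A were 5 higher and 1 lower, against 6.10% of all genes, Col15a1, Col4a1 and Col4a2 being added. Without the block these 3 collagen genes were at 0.90, 1.09 and 1.12 in LCDD against DH-LMP2A, at 0.48, 0.17 and 0.27 in LCDD against WT, and at -0.42, -0.91 and -0.84 in DH-LMP2A against WT, so DH-LMP2A had the lowest fitted level of the 3 genotypes. DESeq2, without the block, called 5 of 19 partners in LCDD against DH-LMP2A (4.31% of all genes), namely Nid1, Nid2, Col4a1, Col4a2 and Egflam. It called 4 in LCDD against WT (3.78%), namely Nid1, Nid2, Col4a6 and Frem2. In DH-LMP2A against WT it called 3 (2.48%), namely Col4a1, Col4a6 and Fras1. Col4a6, an X-linked collagen IV chain of Bowman's capsule and tubule, was at 0.767 to 5.57 CPM in LCDD, 1.09 to 2.30 CPM in DH-LMP2A and 13.7 to 41.9 CPM in WT. Its log2 fold change was -2.95 ± 0.53 in LCDD (adjusted p = 0.0124 by edgeR) and -3.60 ± 0.56 in DH-LMP2A (adjusted p = 0.0132) against WT, and the latter call was lost without DH-LMP2A 2 (adjusted p = 0.0502) or 3 (0.0619). The call in LCDD was lost without the 3 single-mouse WT libraries (-3.39, adjusted p = 0.0765 by edgeR) and with the podocyte covariate (-2.54, adjusted p = 0.0539).

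Of 13 dystroglycan glycosylation genes, whose enzymes build the sugar chain by which dystroglycan grips laminin, 0 were called in any comparison by edgeR without the block or by DESeq2. At an unadjusted p under 0.05 edgeR had 2, 1 and 0, against 13.1%, 12.0% and 12.5% of all genes. The list medians were -0.10, -0.02 and -0.06. The smallest p was that of Tmem5 between LCDD and DH-LMP2A, at 0.38 ± 0.12 (adjusted p = 0.133 by edgeR), and with the block it was called, at 0.38 ± 0.09 (adjusted p = 0.0416), as was Pomt2 in the lower direction. Large had the smallest p between LCDD and WT, at -0.49 ± 0.19 (adjusted p = 0.273 by edgeR), and Tmem5 between DH-LMP2A and WT, at -0.21 ± 0.11 (adjusted p = 0.464).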

How the data were processed

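The authors deposited 1 table of raw read counts per gene for the 13 libraries, with summed exon lengths, per the file headers. The submitters' processing notes name STAR 2.4.0a, featureCounts from Subread 1.5.0-p3, DESeq2 and the builds mm10 and GRCm38. The strand setting, annotation release and handling of multi-mapping reads are not given in the sources used here. Libraries were stranded poly(A) libraries read as pairs, per the labels. All count columns matched 1 sample title each, and 0 were left over. Every member's symbol was found. Of 16 dystroglycan glycosylation symbols listed, older and newer names of some genes included, 13 were in the table. Of the members, 8 of 9 gene spans equalled those of GENCODE M21 on GRCm38. The only exon bases shared with another gene were those of Lama3 and Gm29200, which had 0 counts.

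edgeR 4.0.16 in R 4.3.3 kept 16738 genes with filterByExpr (minimum count 10) and dropped 30220, with 99.93% or more of each library's counts retained. TMM factors scaled the counts, 1 quasi-likelihood fit held all 13 libraries with genotype as its term, and the Benjamini-Hochberg method adjusted p over all genes tested. A gene is called at an adjusted p under 0.05. The fit was tested on simulated data. Values of log2 CPM use a prior count of 2, and 3 counts were taken as the floor of detection. Ratios were tested by exact permutation and correlations by 100000 permutations.

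The labels do not say that the title code pairs libraries. The deviations from genotype means correlated by 0.153 to 0.593 across genes in the 4 same-code pairs of LCDD and DH-LMP2A (mean 0.421, against -0.139 for other pairs), so these were taken as paired. Same-code pairs with WT reached down to -0.165 and -0.159, both with WT 5, and were not taken as paired. The others ran from 0.127 to 0.400 with LCDD and from 0.160 to 0.568 with DH-LMP2A. Their means with WT 5 included were 0.214 and 0.298, against -0.072 and -0.091 for other-code pairs, so the code may pair WT in part. Other-code pairs of LCDD and DH-LMP2A reached 0.524 (LCDD 2 with DH-LMP2A 1), 0.458 (LCDD 3 with DH-LMP2A 4) and 0.419 (LCDD 4 with DH-LMP2A 3). LCDD 2 correlated less with DH-LMP2A 2, its same-code partner, at 0.153. The pairing is therefore not clear under code B.

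The members and lists were chosen with earlier results of these data known, and 1 gene of the lists is not reported here. The text names all 9 members, from each other list the called genes (at most 4 by smallest p) or else the gene with the smallest p, and the 3 genes closest in profile to the member with the widest range. Genes called with the block or by DESeq2, but not by edgeR without the block, were named after their values were seen. The alternatives were DESeq2 1.42.0, RLE factors, other filters, fits of a pair of genotypes, the block, leaving out libraries, and marker covariates.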

Additional observations from a re-analysis of the deposited data

Results flagged for a closer look

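The total count of LCDD 3, 18604929, lay apart from the other 3 LCDD libraries, which held 25276687 to 26544422 counts, by Dixon's test at the 95% level. It was the 1 group with such a library among 66 groups tested (total counts, log2 levels of the named genes and both chain ratios, each per genotype), where chance alone gives about 3.3. No laminin chain level stood apart within its genotype by that test.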

How the results depend on the processing

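The count of laminin chains called stayed at 0 between LCDD and DH-LMP2A under all 23 alternatives. Between LCDD and WT it ranged from 0 to 1 when single libraries were left out (1 without LCDD 1, Lama3) and was 1 with the podocyte marker covariate (Lama3). Between DH-LMP2A and WT it ranged from 0 to 1 (1 without WT 1, Lama1), was 1 with the proximal tubule marker covariate (Lama4, log2 fold change -1.16, adjusted p = 0.0202 by edgeR) and 1 with the podocyte marker covariate (Lama5, 0.47, adjusted p = 0.0496 by edgeR). The podocyte and endothelial covariates were chosen after seeing the data. The cause was not tested. With the endothelial covariate these were 0.08 for Lama4 and -0.12 for Lama5, both turned in sign. No called value reversed.

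The count over all genes, in the order LCDD against DH-LMP2A, LCDD against WT and DH-LMP2A against WT, was 334, 308 and 105. It was 823, 742 and 474 by DESeq2, and 153, 116 and 54 with a filter on a mean of 5 CPM or more. Fits restricted to a pair of genotypes gave 213 and 185 for the first 2. Leaving out single libraries gave 113 to 484, 159 to 441 and 29 to 407. The lowest values came without DH-LMP2A 2 (113 and 29) and without WT 4 (159), and 407 without WT 1. Counts also moved by over 1.5 times without LCDD 1, LCDD 2, DH-LMP2A 3, DH-LMP2A 4, WT 3 or WT 5. Without the 3 single-mouse WT libraries, 54 and 69 genes were called against WT in the last 2. The tubule covariate gave 911 in the first and 475 in the third comparison, the podocyte covariate 899 in the third, and the endothelial covariate 750 and 168 in the last 2.

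With the replicate block, which pairs libraries by title code, 1021, 536 and 562 genes were called. The WT comparisons share codes but were not taken as paired. In them the block left 0 chains called, with 1 of 8 at an unadjusted p under 0.05 against LCDD (17.5% of all genes) and 5 of 8 against DH-LMP2A (21.7%), of which Lama4 had the smallest adjusted p, 0.0601 by edgeR. Without the 3 single-mouse WT libraries the calls of Bcam, Nid1, Nid2, Egflam, Itga7 and, in LCDD, Col4a6 were lost (adjusted p from 0.0692 to 0.528 by edgeR). The call of Nid1 was also lost with RLE factors (adjusted p = 0.0502 by edgeR), without a filter (0.0639) and with the filter at 5 CPM (0.0568). That of Egflam was lost without a filter (0.0543). Among the listed genes the block added calls for Itga1 (0.61, adjusted p = 0.0296 by edgeR) and Frem2 (1.02, adjusted p = 0.0213) in LCDD against WT. In DH-LMP2A against WT it added Itga6 (-1.03, adjusted p = 0.0230 by edgeR), Col4a1 (-1.09, 0.0466), Col4a2 (-1.05, 0.0470) and Col15a1 (-1.05, 0.0425). Of these genes, DESeq2 without the block also called Frem2 and Col4a1, each in the same comparison. Lama1 rests on 6 to 141 counts a library and Lamb3 on 1 to 19, so counting error is large for both at the lower end.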
